A study of Bos taurus with 129 samples.

Results

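The splicing factor genes described here were taken from the gene symbols and chosen by a measured level. A gene was a member if its symbol began with SRSF, HNRNP, PRPF, SF3A, SF3B, SNRP or U2AF, or was U2SURP, and if its mean over all libraries was at least 1 CPM (a count scaled to library size). Of 32395 genes in the count table, 69 symbols matched and 68 were members: 20 HNRNP, 13 PRPF, 11 SRSF, 11 SNRP, 6 SF3B, 3 SF3A and 4 in the U2AF group with U2SURP. SNRPN was the gene left out, with a mean of 0.679 CPM, and the lowest member, SRSF12, had 3.97 CPM. All 68 members passed the filter on low counts in every model.

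Introns are cut out of pre-mRNA by the spliceosome, which is assembled on each intron from small nuclear ribonucleoproteins (snRNPs) and many further proteins. SNRP genes encode the Sm ring and further snRNP proteins, and SF3A and SF3B genes encode the U2 snRNP subunits that hold the branch site. U2AF recognizes the 3′ splice site and U2SURP is a U2-associated protein, while many PRPF proteins belong to the tri-snRNP, the U1 snRNP or the PRPF19 complex that activates the spliceosome. SRSF genes encode the SR proteins and HNRNP genes the heterogeneous nuclear ribonucleoproteins, which bind exons and introns and are known to favour or oppose the use of a splice site. PRPF19 itself is a ubiquitin ligase.

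Whole blood RNA was sequenced from 26 commercial crossbred beef steers after a long haul by trailer, at day 0 and again at days 13, 28, 45 and 60. In the INR group Cu, Co, Mn and Zn came as sulfates in the feed, and in the AAC group as complexes with amino acids. The COMBO group had the complexed feed plus an oral trace mineral drench before shipment, on day 0 and beside any morbidity treatment. The 12 animals with a negative disease label are called healthy (4 AAC, 4 COMBO and 4 INR, 59 libraries), and the 14 animals with a positive label are called BRD, for bovine respiratory disease (4 AAC, 3 COMBO and 7 INR, 70 libraries). The library of healthy AAC animal 48 at day 13 was not analysed here. All animals were vaccinated and dewormed on day 0 and vaccinated again on day 21. Day 0 was the day of pen enrollment, and the labels give neither the diagnosis nor its day, so a BRD library may have been taken before or after disease. At enrollment the AAC animals of both labels stood in pens 2 and 8, healthy INR animals in pens 3 and 4, BRD INR animals in pens 3, 4 and 7, healthy COMBO animals in pen 5 and BRD COMBO animals in pen 6, so that COMBO and its pens cannot be told apart. The labels give 1 pen for each animal, while the methods describe a rotation between pens during the study, so the labelled pen need not be that of later days.

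Total counts per library ranged from 31613545 to 61692136, with a median of 44268685, and the members took 1.26% to 1.78% of the counts (median 1.49%). The correlation of log2 CPM between libraries had a median of 0.978 within animals and 0.965 between animals, and 0 pairs of libraries were identical. The RNA of BRD INR animal 40 at day 60 had the lowest integrity number of the study's methods, and the correlation of PRPF19 and U2SURP is given below with and without this library. Markers of blood cell types were present, with CD79A at 336 to 1120 CPM, CD3E at 144 to 680 CPM and S100A9 at 91.2 to 3067 CPM over the libraries. Because blood is a mixture, fewer cells of a type and less RNA per cell cannot be told apart in any value below.

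The first comparison was made between animals. Levels of most members differed between individual steers: with animal and day within label in an edgeR quasi-likelihood model of all libraries, 59 of 68 members passed an FDR (Benjamini-Hochberg adjusted p) of 0.10, against 85.3% of all 18937 genes tested. By subfamily these were 11 of 11 SRSF, 15 of 20 HNRNP, 12 of 13 PRPF, 3 of 3 SF3A, 5 of 6 SF3B, 9 of 11 SNRP and 4 of 4 U2AF genes. The members' share was close to that of all genes. Treatment and labelled pen are constant within an animal, so they cannot be told apart from the animals in this test. Animals accounted for a median of 30.8% of the variance of log2 CPM of the members and for 42.1% over all genes, where 19.5% would come from the number of animals alone. The members varied little in all, with a median SD of 0.191 in log2 CPM, against 0.418 over all genes, which were not matched to the members by level.

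HNRNPLL, a regulator of CD45 splicing in lymphocytes, had the highest share of variance between animals among the members (67.1%, FDR = 3.65e-15). Its animal means ran from 22.1 CPM in BRD INR animal 43 to 45.0 CPM in BRD AAC animal 9, with a median of 32.26 CPM. SRSF12 followed with 58.9% (FDR = 3.16e-11), HNRNPL with 56.85%, U2SURP with 56.8% (FDR = 6.0e-10), PRPF4, a tri-snRNP protein, with 56.6% (FDR = 2.39e-12) and SF3B3 with 55.3% (FDR = 2.79e-11). For PRPF19 the share was 47.47% (FDR = 4.52e-07), the highest SNRP share was 39.7% (SNRPG, FDR = 4.78e-05) and the highest SF3A share 28.8% (SF3A2). The lowest shares by subfamily were those of HNRNPH3 (14.8%), SF3B1 (15.7%), SRSF2 (19.38%), SNRPF (20.01%), PRPF4B (21.3%), SF3A3 (24.49%) and U2AF2 (28.99%). Animal means differed 2.80-fold between the lowest and the highest animal for SF3B6 and 1.13-fold for HNRNPH2, the extremes among the members.

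PRPF19 means per animal ran from 76.3 CPM in healthy COMBO animal 57 to 124.8 CPM in healthy AAC animal 49, with a median of 91.6 CPM. U2SURP means ran from 109.4 CPM in BRD INR animal 40 to 174 CPM in BRD INR animal 43, with a median of 140 CPM. The 5 animals lowest in U2SURP were all BRD: INR animal 40 and AAC animals 21, 9, 31 and 41, which are all the BRD AAC animals. The other 9 BRD animals lay among the healthy animals or above them. Both genes were high in healthy AAC animals 48 and 49, whereas animal 40 was lowest in U2SURP and the fifth highest animal in PRPF19, which ran from 61.1 to 138.7 CPM over its 5 libraries.

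**Figure D1:**
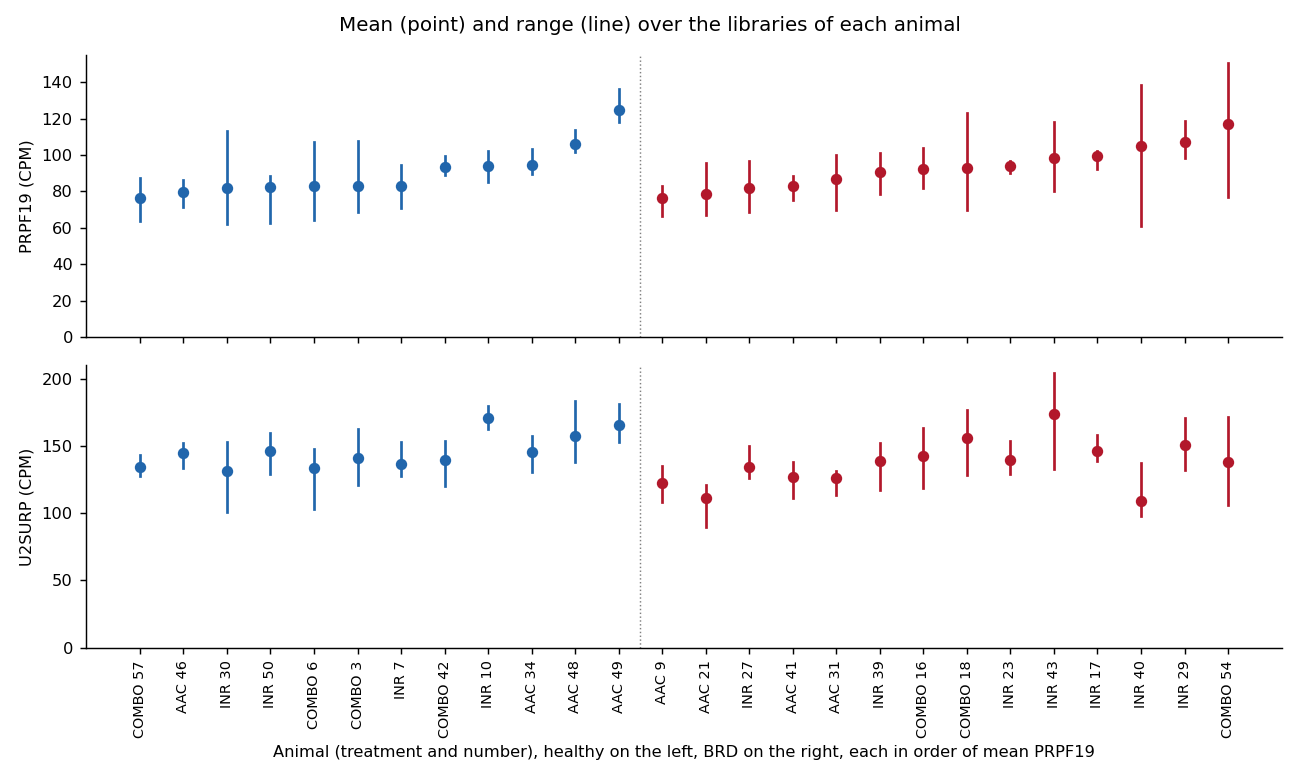
CPM of PRPF19 (upper panel) and U2SURP (lower panel) for each of 26 animals, with points at the mean and lines over the range of the animal's libraries, healthy animals in blue and BRD animals in red, each ordered by mean PRPF19. Animal 49 was highest in PRPF19 at 124.8 CPM, and animals 40 and 43 were lowest and highest in U2SURP at 109.4 and 174 CPM.

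The second comparison followed the same animals from day 0. Most SR protein genes were higher at days 13 and 28, all SF3A genes were lower at day 28, and few SNRP genes moved. At day 13, 23 members were higher and 8 lower, against 16.92% and 15.31% of all genes, and at day 28 there were 14 and 11, against 18.51% and 17.33%. At day 45 there were 9 and 9, against 15.30% and 14.60%, and at day 60 there were 18 and 9, against 16.61% and 15.94%. The share of members called higher was thus above the background at days 13 and 60, and close to or below it in the other direction and on the other days. Over the 4 contrasts, 25 members were called only higher, 15 only lower, 7 in both directions and 21 never. The 4 contrasts share the day 0 libraries. The median log2 fold change over the members was -0.01 at day 13 and 0.02 at day 60, and that over all genes was 0.01 and 0.00.

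Among SRSF genes, 8 of 11 were higher and 0 lower at day 13, with a median log2 fold change of 0.17. At day 28 there were 6 higher and 0 lower, at day 45 there were 0 higher and 2 lower, and at day 60 there were 4 higher and 1 lower. SRSF11 ranged from 164 to 326 CPM at day 0 (median 258) and from 191 to 428 CPM at day 13 (median 316), with overlap between the days, and 20 of 25 animals were higher at day 13. Its log2 fold change was 0.27 ± 0.07 (SE, FDR = 0.00118) at day 13 and 0.27 ± 0.07 (FDR = 0.00104) at day 28. SRSF2, an SR protein that binds exonic enhancers, rose from a median of 338 CPM to 390 CPM at day 13, was higher in 21 of 25 animals and changed by 0.19 ± 0.04 (FDR = 0.000156). It was lower at day 45, at 310 CPM, in 21 of 26 animals (log2 fold change -0.13 ± 0.04, FDR = 0.0108). SRSF5 went the same way, with medians of 177, 221 and 151 CPM at days 0, 13 and 45. It was higher at day 13 (0.24 ± 0.06, FDR = 0.00239) and lower at day 45 in 22 of 26 animals (-0.24 ± 0.06, FDR = 0.00162).

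SRSF7 was higher at days 13 and 60, and at day 60 its median was 151 CPM against 130 CPM at day 0 (log2 fold change 0.23 ± 0.05, FDR = 0.000325, 19 of 26 animals). SRSF12 had a log2 fold change of 0.29 ± 0.08 at day 28 (FDR = 0.00502, 20 of 26 animals). SRSF1, the best known SR protein, had a wide range of 36.5 to 206 CPM at day 0 and 37.6 to 168 CPM at day 60. It was the SRSF gene called lower at day 60 (log2 fold change -0.41 ± 0.17, FDR = 0.0638), with 17 of 26 animals lower.

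Of the 20 HNRNP genes, 5 were higher and 3 lower at day 13, 2 and 5 at day 28, 6 and 5 at day 45, and 5 and 3 at day 60. HNRNPH1, which binds runs of G, had a median of 717 CPM at day 0 and 895 CPM at day 13. It was higher in 19 of 25 animals at day 13 (0.31 ± 0.07, FDR = 0.000436), in 20 of 26 at day 28 (0.23 ± 0.07, FDR = 0.00614) and in 21 of 26 at day 60 (0.24 ± 0.07, FDR = 0.00576). HNRNPF, its close relative, was called lower on all 4 days, by a log2 fold change of -0.05 to -0.09. HNRNPF was lower in 24 of 26 animals at day 28, where its median was 748 CPM against 787 CPM at day 0 (FDR = 6.79e-05). HNRNPDL had the largest share of variance by day among the members (39.03%), with medians of 241 CPM at day 0, 298 CPM at day 13 and 219 CPM at day 45. HNRNPDL was higher in 22 of 25 animals at day 13 (0.27 ± 0.05, FDR = 2.45e-05) and lower at day 45 (-0.18 ± 0.05, FDR = 0.00363). HNRNPA2B1 was higher at day 60 in 22 of 26 animals, at a median of 1058 CPM against 950 CPM (0.15 ± 0.03, FDR = 4.41e-05). HNRNPR was higher (0.10 ± 0.03, FDR = 0.000988) and HNRNPLL lower (-0.18 ± 0.05, FDR = 0.00895) at day 45.

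Of the 13 PRPF genes, 7 were higher and 1 lower at day 13, 4 and 1 at day 28, 2 and 1 at day 45, and 6 and 0 at day 60. PRPF38B, a spliceosomal protein, was the PRPF gene called higher on all 4 days. Its level was 107.8 ± 8.76 CPM at day 0 (SD, n = 26), 122.2 ± 13.29 CPM at day 13 (SD, n = 25) and 121.7 ± 9.30 CPM at day 60 (SD, n = 26). PRPF38B was higher in 20 of 25 animals at day 13 (0.18 ± 0.04, FDR = 3.65e-05) and in 23 of 26 at day 60 (0.18 ± 0.03, FDR = 3.87e-05). PRPF39, which is linked to the U1 snRNP, was higher at days 13, 28 and 60, with a median of 82.04 CPM at day 13 against 65.4 CPM at day 0 (0.26 ± 0.08, FDR = 0.00768). PRPF4 was higher in 21 of 26 animals at day 28 (0.11 ± 0.02, FDR = 0.000115). At day 45 PRPF8, the large protein at the centre of the spliceosome, was higher in 21 of 26 animals (0.11 ± 0.03, FDR = 0.00187) and PRPF40B lower (-0.20 ± 0.06, FDR = 0.00564).

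The 3 SF3A genes were lower at days 28 and 60 (3 of 3 on each day) and 1 of 3 was lower at day 13. SF3A1 ranged from 213 to 326 CPM at day 0 (median 243) and from 184 to 335 CPM at day 28 (median 211). SF3A1 was lower in 21 of 26 animals at day 28 (-0.16 ± 0.04, FDR = 0.00107), and SF3A2 fell at day 60 (-0.16 ± 0.05, FDR = 0.00964). Of 6 SF3B genes, 1 was higher and 2 lower at day 13, 0 and 2 at day 28, 1 and 0 at day 45, and 1 and 1 at day 60. SF3B5 had a median of 30.1 CPM at day 0 and 23.1 CPM at day 60, where 21 of 26 animals were lower (-0.26 ± 0.08, FDR = 0.00739). SF3B4 was lower at day 28 (-0.12 ± 0.04, FDR = 0.0405) and SF3B3 was higher at day 45 (0.10 ± 0.03, FDR = 0.00139).

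Of 11 SNRP genes, 8 were called on no day. SNRPA, the U1 snRNP A protein gene, was higher at day 13 in 20 of 25 animals, at a median of 130 CPM against 112.8 CPM (0.18 ± 0.05, FDR = 0.00211), and again at day 60 (0.11 ± 0.05, FDR = 0.0779). SNRPB2 was lower at day 13 (-0.15 ± 0.05, FDR = 0.0225). SNRPG, an Sm ring gene, was lower at day 45 (-0.15 ± 0.07, FDR = 0.0819) and day 60 (-0.17 ± 0.07, FDR = 0.0541). In the U2AF group, U2AF1 and U2AF2 were called on no day and U2AF1L4 was higher at day 28 (0.10 ± 0.05, FDR = 0.0997). U2SURP was higher at day 13 in 18 of 25 animals (0.13 ± 0.04, FDR = 0.0124), at day 28 in 19 of 26 (0.11 ± 0.04, FDR = 0.0374) and at day 60 in 21 of 26 (0.13 ± 0.04, FDR = 0.0159). Its level was 134 ± 23.3 CPM at day 0 (SD, n = 26) and 145 ± 19.5 CPM at day 60 (SD, n = 26). PRPF19 was called on no day: its log2 fold changes were -0.11, -0.02, 0.10 and 0.01 (FDR = 0.173, 0.848, 0.238 and 0.947), and it was lower in 19 of 25 animals at day 13.

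**Figure D2:**
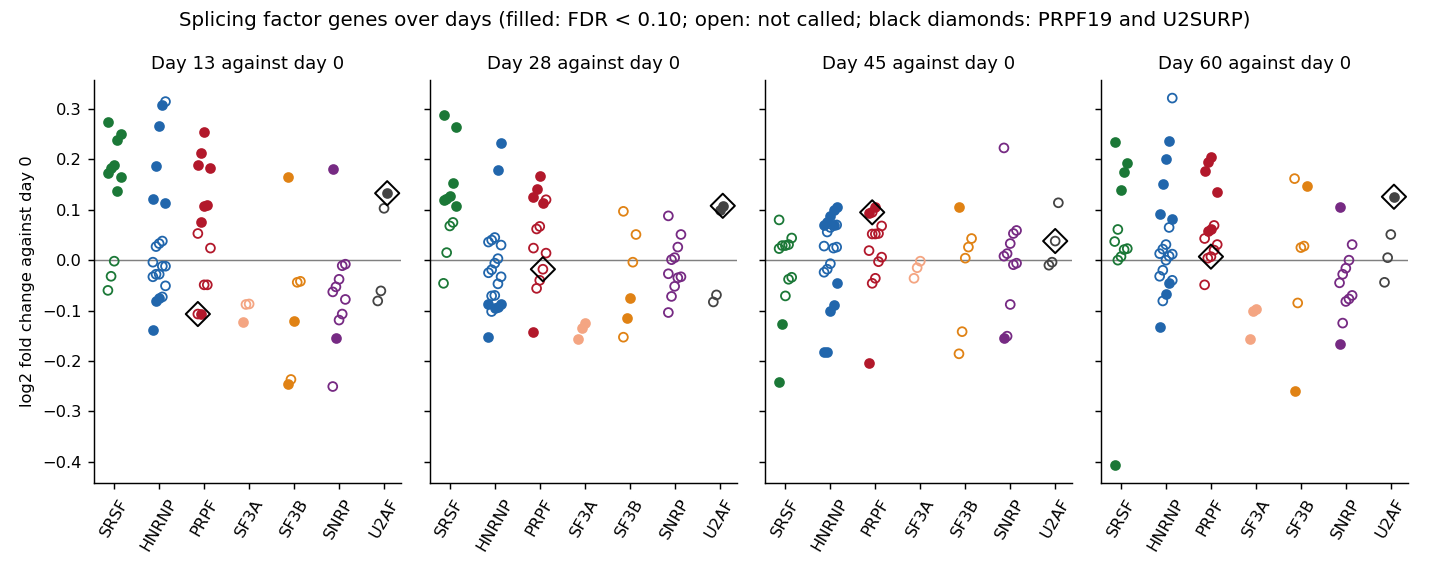
Log2 fold change of each member against day 0 (vertical axis) by subfamily, in a panel for each later day, from the edgeR model with animals as blocks; filled points passed an FDR of 0.10, open points did not, and black diamonds mark PRPF19 (in PRPF) and U2SURP (in U2AF). Of 11 SRSF genes 8 lie above 0 at day 13 (median 0.17), and SRSF1 is the lowest point at day 60 (-0.41). SF3A genes lie below 0 on all 4 days but are not called at day 45. On that day SF3A1 and SF3A3 were each higher in 13 animals and lower in 13.

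Genes outside the members were read from 3 lists chosen for their roles. Of 56 other spliceosome genes, 7 were higher and 17 lower at day 13, 6 and 19 at day 28, 9 and 8 at day 45, and 9 and 9 at day 60. Of 25 other splicing regulators, 13 were higher and 0 lower at day 13, 10 and 1 at day 28, 5 and 1 at day 45, and 9 and 1 at day 60. Of 7 kinases of SR proteins and their relatives, 2, 1, 2 and 3 were higher and 1, 3, 0 and 0 lower on the 4 days. Regulators outside the members thus had more genes higher than lower on each day, as the SRSF genes had at days 13, 28 and 60, and other spliceosome genes had more genes lower at days 13 and 28.

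Blood cell markers moved over the same days. At day 13, 5 of 5 erythroid markers were higher (median log2 fold change 3.55), 3 of 4 platelet markers were higher (0.39), 5 of 7 neutrophil markers were lower (-0.36), 0 of 6 T cell markers were called (-0.05), and 1 of 6 B cell markers was higher (0.01). Of 5 NK and cytotoxic markers 1 was higher and 2 lower (-0.20), and 2 of 5 monocyte markers were lower (-0.17). On days 28, 45 and 60, 3, 4 and 3 erythroid markers were higher, 5, 3 and 5 neutrophil markers were lower (-0.81, -0.61 and -0.45), 3, 2 and 4 monocyte markers were lower, and 2, 5 and 2 B cell markers were higher. Of the NK and cytotoxic markers 3, 2 and 0 were lower and 0, 1 and 1 higher on these days. The summed erythroid markers ran from 19.1 to 2559 CPM at day 0 (median 138) and reached 27890 CPM at day 13 (median 2461), with AHSP and SLC4A1 near 0 CPM in the median library (0.477 and 0.65). The summed neutrophil markers ran from 1618 to 10760 CPM at day 0 (median 2666) and from 1327 to 3444 CPM at day 13 (median 2093). The part of these cell types in the changes of the members was not tested.

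The third comparison asked whether the disease label changed these levels. In the 14 BRD and 12 healthy animals, which are different animals, the changes at day 13 had the same sign for 61 of 68 members (89.7%), against 75.9% of all genes. The same-sign shares at days 28, 45 and 60 were 72.1%, 77.9% and 79.4% for the members and 73%, 72.6% and 76.8% for all genes. In a test of the difference in change between the labels, 0 of 68 members passed on any day, against 0% of all genes, and 0, 2, 0 and 0 members had an unadjusted p under 0.05 at days 13, 28, 45 and 60, against 3.27%, 4.56%, 4.23% and 3.15% of all genes. DESeq2 and limma with voom also called 0 members. The smallest p was that of SNRPA at day 28, which changed less in BRD animals (-0.26 ± 0.09, FDR = 0.951).

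On a given day, 0 of 68 members differed between BRD and healthy animals in the edgeR model, against 0.0158% of all genes at day 0, 0% at day 13, 0.00528% at day 28, 0% at day 45 and 0.00528% at day 60. At day 28, 13 members had an unadjusted p under 0.05 (4 higher and 9 lower in BRD), against 8.63% of all genes, and on the other days 0 did. DESeq2 and limma with voom called 0 members on each day. SF3A1 had the smallest p at day 28, with 184 to 232 CPM in healthy animals (median 209) and 191 to 335 CPM in BRD animals (median 221), and the groups overlapped (0.17 ± 0.06, FDR = 0.509). SF3B6 at day 0 (0.47 ± 0.27, FDR = 0.776), U2AF2 at day 13 (0.21 ± 0.13, FDR = 1), PRPF4 at day 45 (-0.08 ± 0.05, FDR = 1) and PRPF4B at day 60 (-0.13 ± 0.08, FDR = 1) had the smallest p on the other days. The label accounted for a median of 0.626% of the variance of the members, against 0.825% over all genes, and for 5.08% of that of U2SURP, the highest share among them. The combinations of label and treatment accounted for a median of 9.98% of the members' variance, against 9.46% over all genes. For U2SURP this joint share was 22.04% and for PRPF19 20.62%.

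U2SURP at day 28 ran from 134 to 181 CPM in healthy animals (median 147) and from 101.4 to 197 CPM in BRD animals (median 135), so that the BRD range enclosed the healthy range. Its difference between BRD and healthy animals was -0.07, -0.08, -0.16, -0.09 and -0.09 on the 5 days, with FDR of 0.56 to 1. Within the labelled pens that held both labels (pens 2, 3, 4 and 8, which hold no COMBO animal), 5 of 68 members differed at day 0, against 9.12% of all genes, 1 at day 13, against 0.579%, and 1 at day 28, against 0.332%. U2SURP was the member called on all 3 of these days, lower in BRD animals by -0.37 (FDR = 0.0138), -0.33 (FDR = 0.0959) and -0.34 (FDR = 0.0869). It differed by -0.22 at day 45 (FDR = 0.481) and -0.18 at day 60 (FDR = 0.584). These days sampled the same animals, apart from the library not analysed at day 13, so they are not separate tests. The BRD animals were 2 AAC animals in each of pens 2 and 8, and 2 INR animals in pen 3 and 1 in pen 4. At days 13 and 28 the FDR lay close to 0.10, and the fit within pens was not repeated without single animals. Among the other members called within pens at day 0, HNRNPR (-0.16) and PRPF4 (-0.15) were lower in BRD and U2AF1L4 (0.24) was higher. PRPF19 differed within pens by -0.23 at day 0 (FDR = 0.307) and by -0.10 to 0.00 on the other days. In AAC animals, whose labels shared pens 2 and 8, the summed B cell markers at day 0 ran from 907 to 1373 CPM in BRD and from 1819 to 3381 CPM in healthy animals, without overlap, and their part in these differences was not tested.

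**Figure D3:**
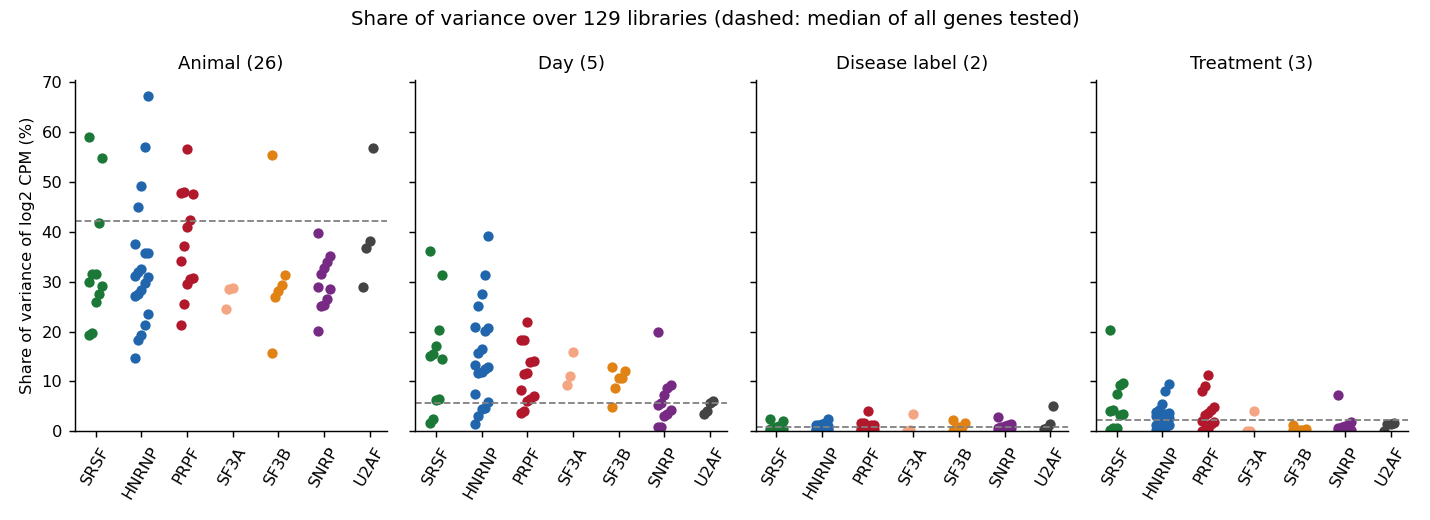
Share of the variance of log2 CPM over all libraries (vertical axis, %) that lay between the 26 animals, 5 days, 2 disease labels and 3 treatments, with a point for each member by subfamily and a dashed line at the median of all genes tested. The members' medians were 30.8% for animals, 10.7% for days, 0.626% for the label and 1.6% for treatment, and HNRNPLL (67.1%) and HNRNPDL (39.03%) were highest for animals and days. Label and treatment are constant within an animal, so their shares are contained in the animal share.

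The fourth comparison was made between treatments. In healthy cattle 0 of 68 members differed between any pair of treatments on any day, against 0.312% of all genes for AAC against INR, 0.0712% between COMBO and INR and 0.192% between AAC and COMBO. DESeq2 called 3 members for AAC against INR and 0 for each of the other pairs, and limma with voom called 0 for each pair. The numbers of members with an unadjusted p under 0.05 on the 5 days in order were 0, 27, 12, 7 and 16 (AAC against INR), 2, 8, 0, 1 and 1 (COMBO against INR), and 3, 4, 4, 1 and 0 (AAC against COMBO). Over all genes the shares at this threshold were 3.26%, 15.4%, 8.5%, 8.71% and 7.81% for the first pair, 9.17%, 8.12%, 5.06%, 5.75% and 4.96% for the second, and 11.2%, 7.12%, 8.1%, 3.95% and 4.88% for the third. The 27 at day 13 included 9 of 11 SNRP genes that were higher and 1 that was lower in AAC, and the SNRP median log2 fold change was 0.43, against -0.02 over all genes. HNRNPAB had the smallest p among the members of that pair, with 268, 296 and 301 CPM as the lowest, median and highest values of 3 AAC animals and 211, 213 and 245 CPM for 4 INR animals, without overlap (0.38 ± 0.11, FDR = 0.129). For COMBO against INR it was SF3A3 at day 60 (0.25 ± 0.09, FDR = 0.937), and for AAC against COMBO it was HNRNPUL2 at day 28 (0.22 ± 0.08, FDR = 0.503). The count for AAC against INR was 3 without healthy COMBO animal 3 and 7 without healthy INR animal 10.

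In BRD cattle, 0 members differed between AAC and INR, against 2.29% of all genes on any day, and 0 between COMBO and INR, against 0.936%. DESeq2 called 1 and 2 members in these pairs, and limma with voom called 3 and 0. Members with an unadjusted p under 0.05 numbered 6, 1, 7, 5 and 17 on the 5 days for AAC against INR, and 11, 12, 0, 2 and 1 for COMBO against INR. The shares of all genes were 12.1%, 9.53%, 11.4%, 10.48% and 14.9% in the first pair and 12.32%, 7.78%, 2.86%, 3.12% and 4.08% in the second. The smallest p was that of SRSF12 at day 28 for AAC against INR (0.77 ± 0.26, FDR = 0.172) and of HNRNPC at day 0 for COMBO against INR (0.23 ± 0.07, FDR = 0.123). Leaving out single animals gave 4 members (BRD INR animal 27) and 1 (BRD INR animal 40) for AAC against INR, and 9 (BRD COMBO animal 16), 1 (BRD INR animal 40) and 1 (BRD INR animal 43) for COMBO against INR. With animals as blocks and the change from day 0 compared, 1 member was called for COMBO against INR, against 1.67% of all genes.

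Between AAC and COMBO in BRD cattle, 25 of 68 members differed on at least 1 day, against 17.1% of all genes. Of these, 15 were called at day 0, the day of pen enrollment, so that they precede the weeks of feeding, while COMBO animals had already been drenched before shipment. At day 0, 2 were higher in AAC, against 5.27% of all genes, and 13 lower, against 7.62%. At day 13, 2 were higher, against 2.25%, and 9 lower, against 3.68%, and at days 28, 45 and 60 edgeR called 0, where 16, 1 and 12 members had an unadjusted p under 0.05, as did 13.2%, 7.27% and 11.47% of all genes. The 13 members lower in AAC at day 0 came from 6 subfamilies (5 HNRNP, 4 PRPF, 1 SF3A, 1 SF3B, 1 SNRP and U2SURP), and the 9 at day 13 were 5 SRSF, 3 PRPF and 1 HNRNP gene. PRPF3 was the member called on both days. Among other spliceosome genes 10 of 56 were lower and 0 higher in AAC at day 0, and among other splicing regulators 8 of 25 were lower and 1 higher at day 13.

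U2SURP at day 0 was at 119.9, 89.8, 113.8 and 111.6 CPM in AAC animals 9, 21, 31 and 41 and at 119.1, 177 and 171 CPM in COMBO animals 16, 18 and 54. Only COMBO animal 16 lay within the AAC range, and the log2 fold change of AAC against COMBO was -0.52 ± 0.16 (FDR = 0.0381). PRPF19 was at 66.5, 95.6, 69.8 and 87.95 CPM in the same AAC animals and at 97.3, 123.3 and 121.1 CPM in the COMBO animals, without overlap (-0.51 ± 0.18, FDR = 0.0585). At day 13 U2SURP differed by -0.35 ± 0.16 (FDR = 0.213) and PRPF19 by 0.06 ± 0.18 (FDR = 0.894), and at day 28 the values were -0.17 ± 0.16 (FDR = 0.702) and -0.50 ± 0.18 (FDR = 0.227).

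HNRNPC, which binds runs of U, had the smallest p at day 0, with 234 to 259 CPM in 4 AAC animals and 261, 345 and 323 CPM in COMBO animals 16, 18 and 54, without overlap (-0.34 ± 0.08, FDR = 0.00557). The tri-snRNP gene PRPF3 was at 62.96, 48.85, 59.3 and 68.9 CPM in AAC and at 65.8, 88.9 and 98.39 CPM in COMBO, with an overlap at COMBO animal 16 (-0.49 ± 0.12, FDR = 0.00619). SF3B3 was at 167 to 201 CPM in AAC and at 207, 240 and 251 CPM in COMBO, without overlap (-0.38 ± 0.09, FDR = 0.00861). SF3A1 (-0.36 ± 0.12, FDR = 0.0568) and SNRPB2 (-0.42 ± 0.15, FDR = 0.0812) were also lower, and their groups overlapped. HNRNPLL was higher in AAC, at 33.18 to 49.3 CPM against 37.5, 20.3 and 22.2 CPM, and COMBO animal 16 lay within the AAC range (0.62 ± 0.24, FDR = 0.0942).

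At day 13 the SR protein gene SRSF6 was at 317, 309, 249 and 377 CPM in AAC animals 9, 21, 31 and 41 and at 464, 485 and 466 CPM in COMBO animals 16, 18 and 54. The groups did not overlap (-0.61 ± 0.14, FDR = 0.0219), and the 7 INR animals ran from 309 to 471 CPM. All 11 SRSF genes had a negative fold change at day 13 (median -0.43), and SRSF2, SRSF4, SRSF6, SRSF7 and SRSF10 were called. Among the members called at day 13, PRPF39 had the largest change, at 47.2 to 85.3 CPM in AAC and 100.01 to 104.62 CPM in COMBO (-0.68 ± 0.23, FDR = 0.0871).

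**Figure D4:**
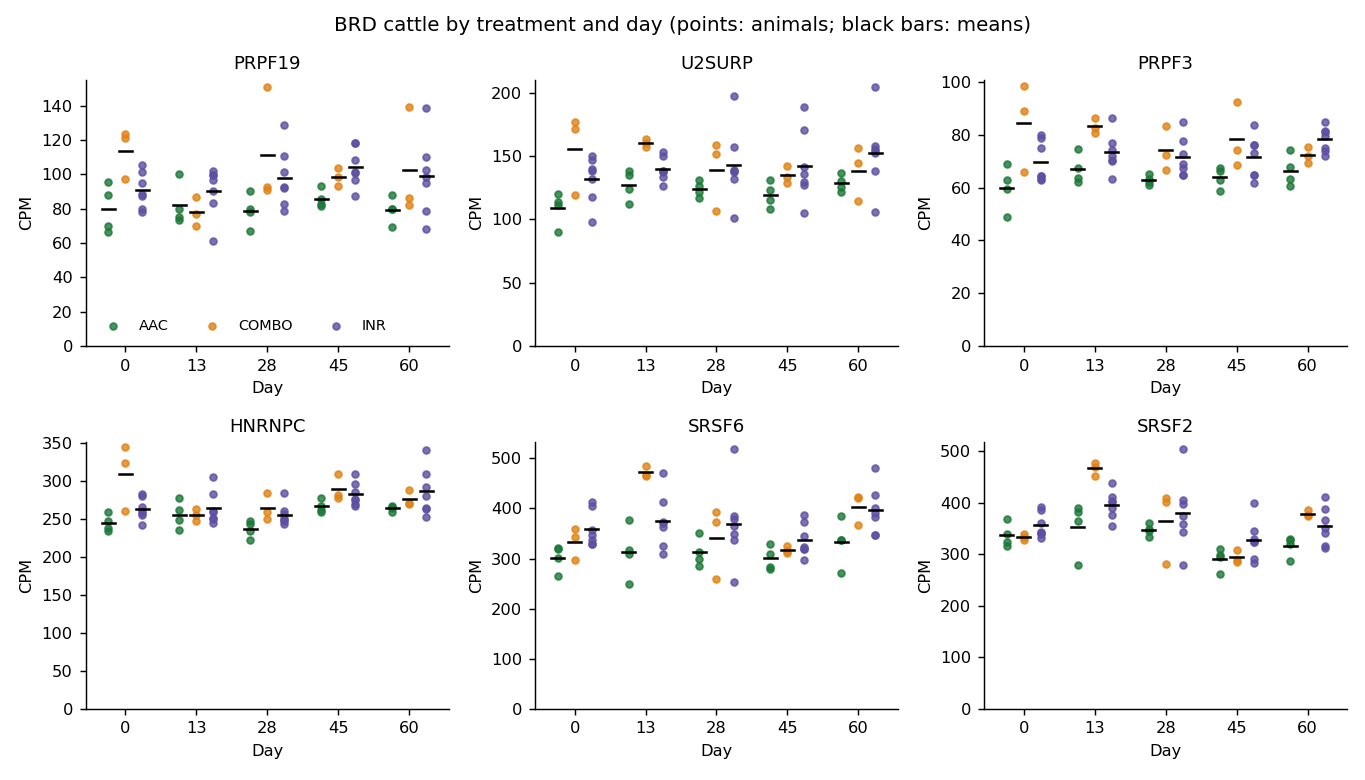
CPM of PRPF19, U2SURP, PRPF3, HNRNPC, SRSF6 and SRSF2 in BRD cattle by day (horizontal axis), with a point for each animal in AAC (green, 4), COMBO (orange, 3) and INR (purple, 7) and a black bar at each mean. The COMBO mean lies above the AAC mean at day 0 in PRPF19, U2SURP, PRPF3 and HNRNPC and at day 13 in SRSF6 (464 to 485 against 249 to 377 CPM) and SRSF2.

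These calls rested on few animals. Of the 15 calls at day 0, 0 were kept in each of 14 fits without an animal, and of the 11 at day 13, SRSF6 alone was kept in each. The fold changes of all these calls kept their sign in each fit, and that of U2SURP at day 0 ran from -0.68 to -0.42 and that of HNRNPC from -0.45 to -0.26. The count of 25 was 3 without COMBO animal 18, 7 without COMBO animal 54, 8 without AAC animal 31, 10 without AAC animal 21 and 12 without AAC animal 9, and it was 0 when each pair of groups at a day was fitted alone. With animals as blocks and the change from day 0 compared, 7 of 68 members were called, against 5.39% of all genes. For AAC against COMBO these were HNRNPK (0.30), HNRNPUL2 (0.35) and PRPF40B (-0.81) at day 13. At day 60 they were HNRNPR (0.38), HNRNPU (0.40), SF3B3 (0.36) and U2AF1L4 (-0.51). The differences of these day 60 genes at day 0 itself had the opposite sign (-0.33, -0.38, -0.38 and 0.40). All 6 B cell markers were lower in AAC than in COMBO at day 0 (median log2 fold change -1.25), with sums of 907 to 1373 CPM in AAC and 2092 to 3273 CPM in COMBO, and 2 of 6 were lower at day 13 (-0.81), with 987 to 1686 and 2246 to 2311 CPM. At day 0, 2 of 5 monocyte markers (median 0.76) and 1 of 7 neutrophil markers (median 0.00) were also higher in AAC, and at day 13 so were 2 of 5 erythroid markers (median 3.27). The part of these cell types in the differences of the members was not tested, and COMBO and pen 6 cannot be told apart.

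The difference between AAC and COMBO was itself compared between the labels. At day 0 it was lower in BRD than in healthy animals for 16 members, against 9.49% of all genes, and higher for 1, HNRNPLL, against 6.86%. For PRPF19 it was -0.51 in BRD and 0.34 in healthy animals, a difference of -0.87 ± 0.25 (FDR = 0.0155), and for U2SURP it was -0.52 and 0.27, a difference of -0.81 ± 0.20 (FDR = 0.00514). Healthy AAC animals had 131.0 to 183 CPM of U2SURP at day 0 and healthy COMBO animals 103.48 to 142 CPM, with overlap, which is the opposite order to that in BRD. Other members called lower included HNRNPA2B1, HNRNPC, HNRNPF, HNRNPR, HNRNPU, PRPF3, PRPF4, PRPF6, SF3A1, SF3A2, SF3B3, SNRPB2 and SRSF3 (-0.28 to -0.56). The count of 17 was 6 without BRD COMBO animal 18 or 54, 8 without healthy AAC animal 48, 10 without healthy AAC animal 49 and 11 without healthy COMBO animal 6. All 6 B cell markers were lower in the same contrast at day 0 (median -2.01), and their part in it was not tested. At enrollment, healthy COMBO animals stood in pen 5 and BRD COMBO animals in pen 6. Label and pen of the COMBO animals thus cannot be told apart in this contrast.

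At day 28 SNRPG was the member called, against 1.9% of all genes. It was at 16.3, 11.8, 19.9 and 13.1 CPM in BRD AAC animals and at 23.6, 18.98 and 26.61 CPM in BRD COMBO animals, while healthy AAC animals had 13.0 to 22.2 CPM and healthy COMBO animals 13.8 to 18.2 CPM. The difference of the differences was -0.90 ± 0.28 (FDR = 0.0985). At day 60 it was SRSF9, against 0.782% of all genes, with 64.6 to 80.7 CPM in BRD AAC, 82.3 to 139 CPM in BRD COMBO, 73.1 to 106.95 CPM in healthy AAC and 73.1 to 86.01 CPM in healthy COMBO animals (-0.69 ± 0.17, FDR = 0.0622). In BRD both genes had COMBO above AAC, with overlap for SNRPG and without overlap for SRSF9. Neither count of 1 held in each fit without an animal: it was 0 to 4 at day 28, where leaving out 11 of 15 animals moved it, and 0 to 6 at day 60, where leaving out 9 of 15 did.

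The last question was whether PRPF19 and U2SURP follow different axes. Both genes had been singled out by their correlation with principal components of the healthy libraries, so the values there are a description. Over 59 healthy libraries PRPF19 had r = 0.95 with PC1 (14.5% of variance) and -0.10 with PC2 (10.7%), and U2SURP had 0.11 with PC1 and -0.93 with PC2. In components computed from the 70 BRD libraries alone, PRPF19 had r = 0.48 with PC1 (16.2%) and -0.79 with PC2 (13.5%), and U2SURP had -0.79 and -0.51. Among 17043 genes ranked by absolute r, PRPF19 stood at 4315 on BRD PC1 and 312 on BRD PC2, and U2SURP at 1014 and 3176. On healthy PC1 PRPF19 ranked 1, and on healthy PC2 U2SURP ranked 2. The loadings of healthy PC1 had r = 0.53 with those of BRD PC1 and -0.66 with those of BRD PC2, and the loadings of healthy PC2 had 0.64 and 0.46, over 16569 genes. Each healthy component was thus related to both BRD components, and each gene correlated with both of these. In BRD libraries PC2 lay mainly between animals (72.44% of its variance), and PC1 less so (35.3%).

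Over the means of the 14 BRD animals, PRPF19 and U2SURP had r = 0.42 (permutation p = 0.136) and rho = 0.46 (permutation p = 0.0995, two-sided, 1e+05 permutations). Within the 7 BRD INR animals r was 0.09 and rho 0.32. With the 2 animals farthest from the median of PRPF19 left out r was 0.435. Without BRD INR animal 40, which was lowest in U2SURP, r was 0.635 (permutation p = 0.0195), and without its library at day 60 alone r was 0.53 (permutation p = 0.0519) and rho 0.60 (permutation p = 0.027). On single days r was 0.45, -0.18, -0.32, 0.70 and -0.12, and day 45 was the day past a p of 0.05 (permutation p = 0.00468). Over the 12 healthy animals r was 0.75. Across single libraries the genes were nearly unrelated, with r = 0.04 over 70 BRD and 0.17 over 59 healthy libraries, and after the means of animals and days were removed r was -0.29 and -0.39. Libraries of an animal share it, and the genes share libraries and their scaling.

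The members divided between the genes by subfamily. Over the 70 BRD libraries, SNRP, SF3A and SF3B genes had a median r of 0.70, 0.77 and 0.74 with PRPF19 and of -0.11, -0.22 and -0.04 with U2SURP. SRSF genes had a median of -0.22 with PRPF19 and 0.51 with U2SURP, the other PRPF genes had -0.09 with PRPF19, and PRPF genes had 0.38 with U2SURP. HNRNP genes lay on both sides, with 11 of 20 nearer PRPF19 and 9 nearer U2SURP. In healthy libraries the order was alike: SNRP, SF3A and SF3B had medians of 0.75, 0.81 and 0.80 with PRPF19, and SRSF had -0.33 with PRPF19 and 0.50 with U2SURP. Among all genes tested, 11.6% had r above 0.5 with PRPF19 and 10.6% with U2SURP in BRD libraries, and among the other 67 members these were 30 and 18.

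SNRPB, an Sm ring gene, was the member most like PRPF19 over the 70 BRD libraries (r = 0.89), followed by SNRPB2 and SNRPD3 (0.88 each), HNRNPAB and HNRNPM (0.86 each). The lowest were HNRNPLL (-0.73), SF3B1 (-0.68), HNRNPH3 (-0.615), PRPF4B (-0.53) and PRPF18 (-0.53). Members among the 5 most like U2SURP included the SR protein genes SRSF10 (0.84) and SRSF11 (0.79), HNRNPU (0.76) and PRPF39 (0.75), which is linked to the U1 snRNP. The lowest were U2AF1L4 (-0.64), HNRNPA0 (-0.47), SF3A3 (-0.42), SF3B4 (-0.39) and HNRNPUL1 (-0.37). SF3B1 stood apart from the other SF3B genes, with r = 0.58 with U2SURP.

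**Figure D5:**
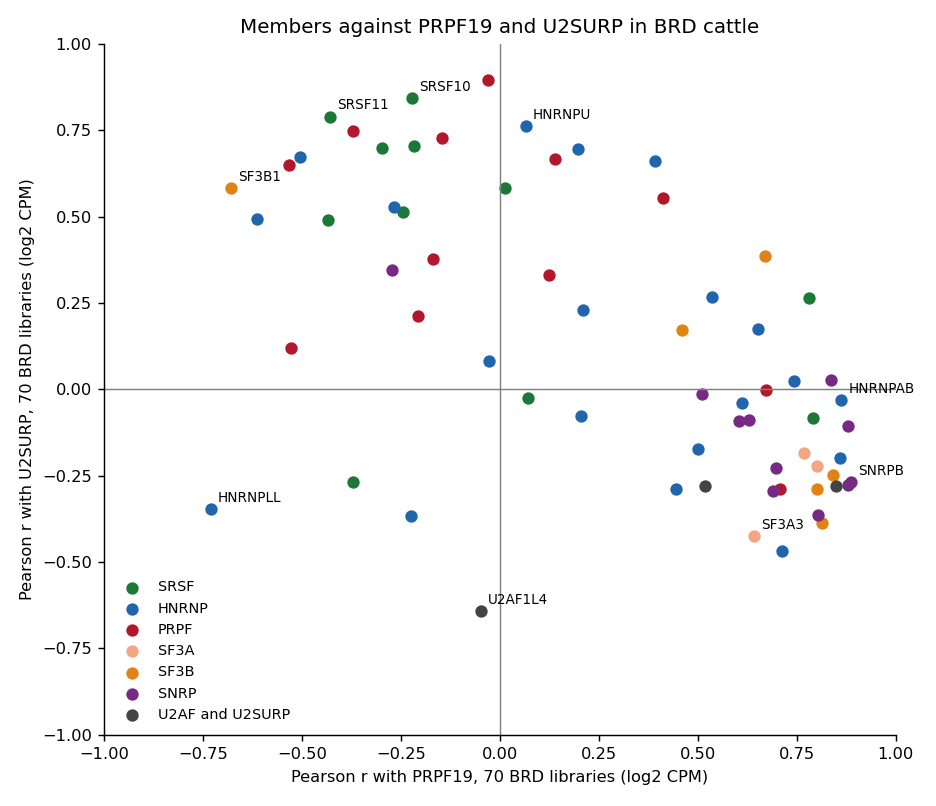
Pearson r of each member with PRPF19 (horizontal axis) and with U2SURP (vertical axis) over 70 BRD libraries (log2 CPM), coloured by subfamily, with PRPF19 and U2SURP left out. SNRP and SF3A genes gather at the right, with SNRPB at 0.89, and SRSF genes mostly at the upper left, with SRSF10 at 0.84 and SRSF11 at 0.79 on the vertical axis.

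Marker scores of blood cells moved with these levels. The B cell score had r = 0.637 with PRPF19 and 0.558 with U2SURP over 70 BRD libraries, and 0.645 and 0.709 over 59 healthy libraries. The T cell score had r = -0.64 (BRD) and -0.675 (healthy) with U2SURP, 0.06 and -0.02 with PRPF19, and -0.47 and -0.51 with the mean of SRSF genes. After the means of animals and days were removed, the T cell score had r = 0.42 and 0.63 with PRPF19, 0.54 and 0.70 with SNRP genes, and -0.65 and -0.53 with U2SURP. The part of these cell types in the axes was not tested.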

How the data were processed

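Whole blood was collected into Tempus tubes and sequenced after a stranded mRNA preparation. The authors trimmed and aligned the reads to ARS-UCD1.3, assembled them with StringTie and deposited gene counts, which prepDE derived from coverage with a read length of 150. The submitters' processing notes name FastQC 0.11.9, Trimmomatic 0.39, StringTie 2.2.0 and edgeR 3.36.0. Counts of genes with close paralogs or processed pseudogenes, such as HNRNPA1, are uncertain because shared reads can be split between copies.

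The members and lists were chosen with earlier results of these data known. The deposited counts were tested with edgeR 4.0.16 (R 4.3.3; TMM factors, filterByExpr, quasi-likelihood test with the common dispersion), with Benjamini-Hochberg adjustment over all genes of a contrast and an FDR of 0.10. Animals and days were tested with animal as a block in 129 libraries, disease labels with a mean for each label, treatment and day, and treatments within 59 healthy or 70 BRD libraries. The models of labels and treatments, also within shared pens, had no term for the animal. Their estimate of spread thus took libraries of an animal on different days as independent. Voom estimated a correlation within animals of 0.322 in healthy and 0.315 in BRD libraries. Day 0 pairs with later days by the animal number of the labels: deviations of libraries had a median correlation of 0.371 within animals (above 0.1 for 255 of 256 pairs) and -0.0101 between animals. Log2 CPM used a prior count of 2, and fold changes are log2. The p-values of animals rest on repeated samples of single animals.

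Genes were named by a rule: PRPF19 and U2SURP, every called member where 8 or fewer were called, otherwise the smallest p and the largest change of each subfamily, the smallest p where none was called, the extremes of variance between animals, and the 5 highest and lowest correlations. HNRNPUL2 and other members listed for completeness were named after their values were seen, and 1 member that the counts include is not reported here by name. Alternatives were RLE factors, no filter on low counts or a mean of 1 CPM, trended dispersion, DESeq2 1.42.0, limma 3.58.1 with voom, an FDR of 0.05, shared pens, and leaving out each animal, in which the dispersion of the blocked model was kept. The comparison of treatment differences between labels and the runs without 1 library of low RNA integrity were added after seeing the data. The procedures were tested on simulated data with changes larger than those of the members. The simulated label and treatment data held no differences between animals. That test therefore does not speak to calls or absent calls at the sizes reported here. Permutations (100000) and variance shares used Python 3.11.15, numpy 2.4.6 and scipy 1.17.1.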

Additional observations from a re-analysis of the deposited data

Results flagged for a closer look

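The difference between AAC and COMBO differed between BRD and healthy animals, by the test of that difference in edgeR, for 17 members at day 0 (16 lower in BRD, against 9.49% of all genes, and 1 higher, against 6.86%), 1 at day 28 (against 1.9%) and 1 at day 60 (against 0.782%). A single member is 1.47% of the 68. Without single animals the counts were 6 to 19, 0 to 4 and 0 to 6 on these days. Healthy COMBO animals stood in pen 5 and BRD COMBO animals in pen 6, so label and pen cannot be told apart here. The log2 values of BRD minus healthy were -0.87 for PRPF19 and -0.81 for U2SURP at day 0, -0.90 for SNRPG at day 28 and -0.69 for SRSF9 at day 60. Of 72 groups of 4 to 10 samples checked for a sample far from the others, 0 had one, where chance gives about 1 in 20. Groups of 3, among them BRD COMBO on each day, were not checked. Members other than PRPF19 and U2SURP were checked in BRD AAC groups only.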

How the results depend on the processing

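The counts of members that differed between animals or days stayed within 1.5 times under each alternative run: without single animals they were 53 to 61 for animals, 30 to 39 at day 13, 21 to 31 at day 28, 16 to 22 at day 45 and 22 to 31 at day 60. The counts for the label stayed at 0 without single animals. Within shared pens they were 5, 1 and 1 at days 0, 13 and 28, and that fit was not repeated without single animals. Without the replicate block, 30, 18 and 13 members were called at days 13, 28 and 45.

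For AAC against COMBO in BRD cattle, the count of 25 became 16 without the filter on low counts, 0 with each pair fitted alone, 12 at an FDR of 0.05 and 3 to 32 without single animals. With the replicate block and the change from day 0, it was 7, and for COMBO against INR it was 1 (1.67% of all genes). A difference at day 0 enters such a change with the opposite sign. DESeq2 called 3 members for AAC against INR in healthy cattle, and 1 and 2 for AAC and COMBO against INR in BRD cattle. Voom called 3 for AAC against INR in BRD cattle. Without single animals these counts were 0 to 7, 0 to 4 and 0 to 9.

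The treatment difference between labels gave 6 to 19 members at day 0 without single animals. At day 28 the count of 1 became 0 with RLE factors, without the filter or at an FDR of 0.05, and 4 with a mean of 1 CPM or with DESeq2, and 0 to 4 without single animals. At day 60 it became 0 without the filter, with the day alone or at an FDR of 0.05, and 2 with DESeq2, and 0 to 6 without single animals. The correlation of PRPF19 and U2SURP was -0.176, -0.317, 0.702 and -0.123 on days 13, 28, 45 and 60 alone, and 0.288 to 0.635 without single animals. Of 146 named genes and comparisons, 0 reversed, 19 lost and 7 gained a call under at least 1 alternative. The cause of these changes was not tested. Groups of 3 or 4 animals limit the treatment comparisons.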
